A study of Drosophila melanogaster with 9 samples.

Results

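The 4 piRNA clusters described here are cluster29, cluster33, cluster42 and cluster78, taken by name from the sense and antisense cluster abundance tables, which list 140 clusters in each of 9 small RNA libraries. They were chosen because their abundance in the mutants was far below WT on both strands, so every difference between a mutant and WT in these clusters, and every change of their strand ratio against WT, is given as a description without a test. The libraries came from ovaries of Drosophila melanogaster females aged 3 to 5 days, heat-shocked as larvae and fed wet yeast. There were 3 groups with 3 libraries each. The enok2 group carried FRTG13 with enok[2], the enok1 group carried FRTG13 with enok[1], and the WT group carried FRTG13 alone. In all 3 groups the homolog was FRTG13 with ovo[D1-18], and hs-Flp, a heat-shock-driven recombinase, was present in a single copy.

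Recombination at FRTG13 made germline cells homozygous for the enok arm, and ovo[D1-18] blocked egg chambers whose germline had not recombined. Somatic follicle cells surround the germline in these egg chambers, and their genotype was not given. The number of females pooled per library was not given. The enok gene encodes a MYST-family histone acetyltransferase. According to the study, enok1 is a truncating allele that lacks much of the acetyltransferase domain, and enok2 carries an amino acid substitution within that domain. The study calls the 3 replicates independent, but nothing in the labels states that the libraries of a group came from separate crosses. The p-values thus measure only the spread between these libraries, with variance shared across clusters in the main limma fits.

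PIWI-interacting RNAs (piRNAs) guide PIWI proteins to silence transposons in the gonad, and most derive from discrete genomic loci called piRNA clusters. In the Drosophila germline many clusters are dual-strand: both strands are transcribed, through the chromodomain protein Rhino and its partners Deadlock and Cutoff, and the precursors are cut into piRNAs in the cytoplasm. Uni-strand clusters such as flam (flamenco), which is active in follicle cells, are transcribed from a promoter in 1 direction and do not need Rhino. 42AB is the classical dual-strand germline cluster. For cluster33 and cluster42 the study describes an expressed gene lying within the cluster, and no gene was assigned to cluster29 or cluster78 here. In the RNA-seq of the study, RNA from cluster29 and cluster78 was significantly lower in both mutants, while that from cluster33 and cluster42 was not. The study proposes that mRNA of the genes within cluster33 and cluster42 may have masked a fall of precursor transcripts. Positions and sequences of the clusters were not used here, and sense and antisense are the strands as the tables name them.

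An abundance is the signal of a cluster on 1 strand, which the authors set relative to microRNAs (miRNAs) in that library. A change in miRNA level would therefore move all clusters of a library alike. Taken in units of 1 read, worth 0.271 to 0.486 depending on the library, the clusters together held 809979 to 1043143 read equivalents per library in enok2, 980077 to 1109426 in enok1 and 1372446 to 1447614 in WT. On the scale of these values, flam sense piRNAs stood at 94.8% of WT in enok2 and at 95.8% in enok1, while 42AB sense piRNAs stood at 19.5% and 16.5%. The sense signal at the tj 3' UTR, a known follicle cell source of piRNAs, averaged 56.8 ± 4.4 in enok2, 62.9 ± 12.9 in enok1 and 55.5 ± 6.7 in WT (SD, n = 3 each). Per the methods of the study, the RNA came from egg chambers past the early stages, which hold both germline and follicle cells. The share of germline cells was not measured, so fewer germline cells and less piRNA per cell were not told apart.

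In WT ovaries the 4 clusters were mid-sized to small. On the sense strand their WT mean abundances held ranks 72 (cluster29), 88 (cluster33), 91 (cluster78) and 120 (cluster42) of 140 from the top. Summed over both strands, the 4 clusters made up 0.105% of the cluster piRNAs in enok2 and 0.123% in enok1, against 0.596% in WT. Their summed sense abundance was 192 ± 2.7 in enok2 and 197 ± 28.8 in enok1, against 1943 ± 66.7 in WT (SD, n = 3 each). Their summed antisense abundance was 243 ± 4.9 in enok2 and 263 ± 49.8 in enok1, against 1438 ± 64.7 in WT. The 4 clusters thus kept 9.88% of WT sense piRNAs in enok2 and 10.1% in enok1, and 16.9% of WT antisense piRNAs in enok2 and 18.3% in enok1. They accounted for 1.91% of the net loss of cluster piRNAs in enok2 and 1.49% in enok1.

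The largest sense loss was that of cluster29, the most abundant of the 4. Its sense abundance was 45.1, 41.7 and 44.7 in the enok2 libraries and 42.4, 57.2 and 45.9 in the enok1 libraries, against 754, 760 and 770 in the WT libraries. The mutant libraries were an order of magnitude below WT and overlapped each other. Means were 17.4-fold lower in enok2 and 15.7-fold lower in enok1, leaving 5.76% and 6.38% of WT. From rank 72 of the sense clusters in WT, cluster29 was at rank 134 in enok2 and 133 in enok1. Its antisense abundance was 96.2, 110 and 107 in enok2 and 96.1, 135 and 148 in enok1, against 631, 687 and 688 in WT. The antisense strand kept 15.6% of WT in enok2 and 18.9% in enok1, a larger share than the sense strand in both alleles.

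For cluster33, sense abundance was 73.5, 68.5 and 72.2 in enok2 and 35.3, 56.5 and 51.1 in enok1, against 542, 509 and 548 in WT. Here the alleles did not overlap, with every enok2 library above every enok1 library, and 13.4% of WT was left in enok2 and 8.94% in enok1. The antisense abundance was 99.0, 86.3 and 91.2 in enok2 and 71.7, 89.96 and 92.7 in enok1, against 385, 321 and 393 in WT. On this strand the alleles overlapped, and cluster33 kept 25.2% of WT in enok2 and 23.1% in enok1. This was the highest mean antisense residual of the 4 clusters in enok2, where its libraries partly overlapped those of cluster78, while in enok1 the libraries of cluster33 (19.6% to 25.3%) lay within the range of cluster78 (16.2% to 31.3%) and the 2 were not resolved.

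The smallest cluster on the sense strand, cluster42, lost more on the other strand. Its antisense abundance was 11.2, 11.2 and 20.4 in enok2 and 13.99, 20.4 and 22 in enok1, against 273, 233 and 270 in WT. This left 5.51% of WT in enok2 and 7.26% in enok1, on values worth as few as 23 read equivalents, and the third enok2 library was well above the other two. The approximate counting error of the enok2 mean antisense value was 17.4% per library, and the spread between the enok2 libraries was 37.0% of their mean. The sense abundance of cluster42 was 22.2, 24.7 and 26.0 in enok2 and 21.4, 19.6 and 32.6 in enok1, against 160, 156 and 166 in WT. Sense residuals were nearly equal in the alleles, 15.1% in enok2 and 15.2% in enok1.

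Sense piRNAs of cluster78 measured 48.8, 56.4 and 51.9 in enok2 and 64.7, 84.3 and 79.0 in enok1, against 463, 467 and 535 in WT. Again the alleles did not overlap, but here every enok2 library lay below every enok1 library, with 10.7% of WT left in enok2 and 15.6% in enok1. Its antisense piRNAs measured 35.1, 31.1 and 29.2 in enok2 and 23.4, 45.0 and 29.4 in enok1, against 152, 130 and 150 in WT. The antisense residual was 22.1% in enok2 and 22.7% in enok1, and the enok1 libraries spread on both sides of the enok2 libraries.

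**Figure D1:**
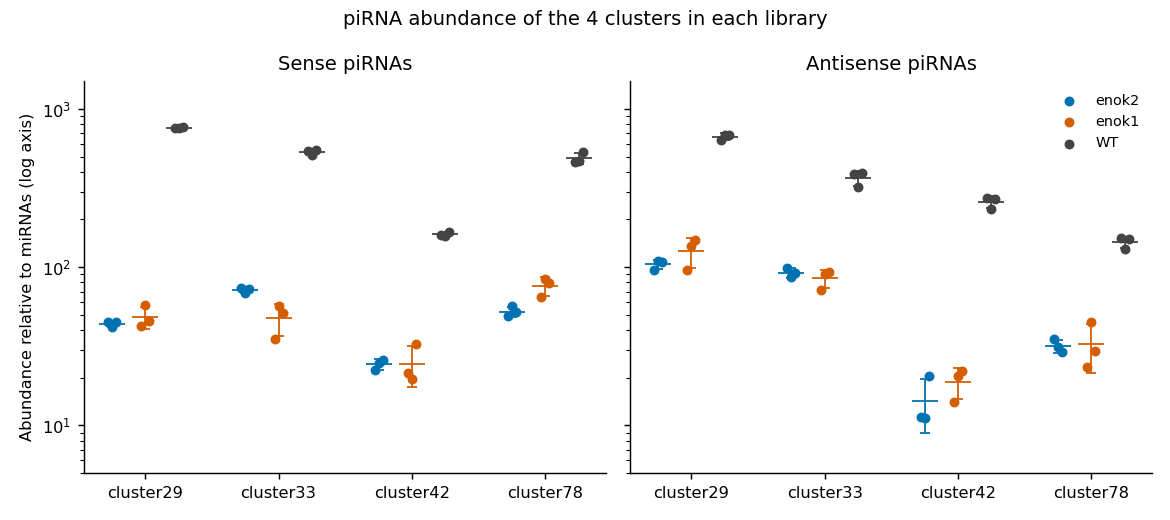
piRNA abundance relative to miRNAs (log axis) of cluster29, cluster33, cluster42 and cluster78 on the sense (left) and antisense (right) strand, with a point per library and the mean ± SD of the 3 libraries of enok2, enok1 and WT. In all 8 combinations of cluster and strand the mutant libraries lie below the WT libraries.

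On the scale of log2(abundance + 1), sense log2 fold changes against WT in enok2 were -4.09 (cluster29), -2.88 (cluster33), -2.68 (cluster42) and -3.20 (cluster78), each with a standard error of 0.09. Those in enok1 were -3.95, -3.48, -2.70 and -2.67 in the same order of clusters, each with a standard error of 0.18. The antisense log2 fold changes were -2.67, -1.98, -4.14 and -2.14 in enok2, and -2.42, -2.10, -3.73 and -2.16 in enok1. The median sense log2 fold change of all 140 clusters was -0.20 in enok2 and -0.29 in enok1, and the antisense median was -0.24 in enok2 and -0.35 in enok1. All 4 clusters had every mutant library below every WT library on both strands, which the choice of the clusters fixed. The share of all clusters with no overlap and lower mutant values was 50% in enok2 and 51.4% in enok1 on the sense strand, and 57.9% in enok2 and 54.3% in enok1 on the antisense strand. By limma at an adjusted p under 0.05, the share of all clusters called lower was 50.7% in enok2 and 44.3% in enok1 for sense, and 54.3% in enok2 and 47.1% in enok1 for antisense piRNAs.

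Ordered by the mean log2 fold change over both strands and both alleles, the 4 clusters held positions 1, 2, 4 and 5. Their means were -3.31 (cluster42), -3.28 (cluster29), -2.61 (cluster33) and -2.54 (cluster78). The third position belonged to cluster11 at -2.82, a strongly antisense cluster that is no member of the set, and the next clusters below were 42AB at -2.51 and cluster4 at -2.46. There was thus no gap between cluster78 and 42AB. These clusters were also those with the most similar profiles: 42AB, cluster11 and cluster4 had the smallest root mean square distances from the mean profile of the 4 clusters, at 0.45, 0.53 and 0.58 log2 units over 18 values (both strands in 9 libraries, each relative to WT). The 4 clusters themselves lay at 0.39 (cluster78), 0.42 (cluster33), 0.49 (cluster29) and 0.81 (cluster42) from that mean, of which they are part. Between pairs, cluster33 and cluster78 were nearest at 0.39, and cluster33 and cluster42 farthest apart at 1.18, so the set was not uniform and cluster42 stood apart from the other 3.

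**Figure D2:**
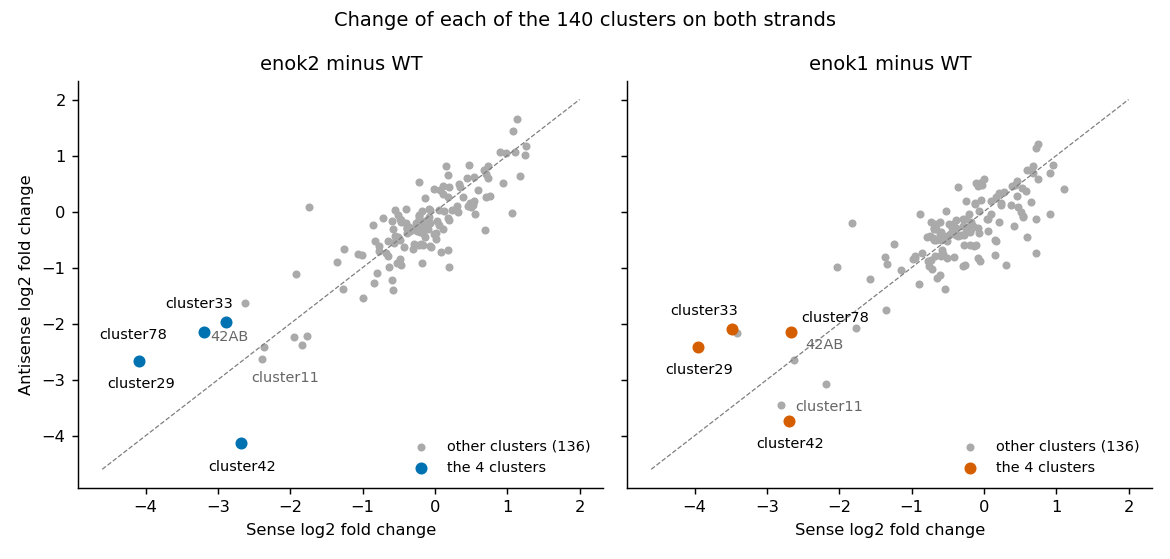
Antisense against sense log2 fold change of log2(abundance + 1) for each of the 140 clusters, in enok2 against WT (left) and enok1 against WT (right), with equal change on both strands as a dashed line. Of the 4 clusters (coloured), cluster42 lies below the line and the other 3 above it, and 42AB lies close to the line.

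When both strands were added, cluster42 kept least. Its summed residual was 9.19% ± 1.6 of WT in enok2 and 10.3% ± 2.4 in enok1 (SD, n = 3 each). The residual of cluster29 was 10.4% ± 0.42 in enok2 and 12.2% ± 2.2 in enok1. For cluster78 it was 13.3% ± 0.51 in enok2 and 17.2% ± 3.3 in enok1, and for cluster33 it was 18.2% ± 0.99 in enok2 and 14.7% ± 2.5 in enok1. In enok2 the order was cluster42, cluster29, cluster78 and cluster33, and only the first pair overlapped in its library values. In enok1 cluster33 and cluster78 changed places, and the libraries of every pair of neighbours overlapped, so that order was not resolved by the replicates.

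**Figure D3:**
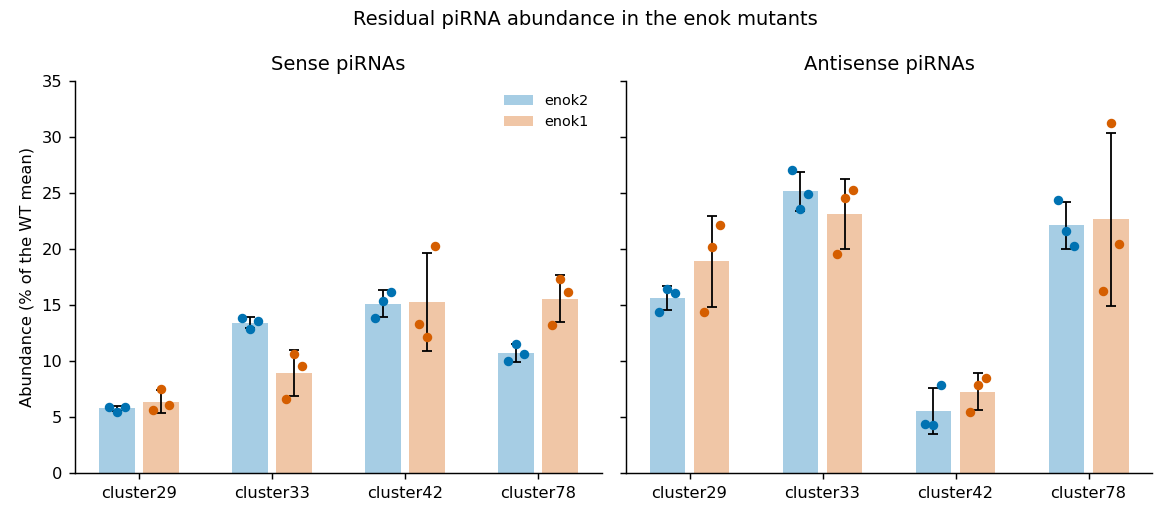
Abundance as a percentage of the WT mean (bars start at 0) on the sense (left) and antisense (right) strand, with a point per library, the mean as a bar and the SD as a line, for enok2 and enok1. Sense residuals run from 5.76% for cluster29 to 15.1% for cluster42 in enok2, and antisense residuals from 5.51% for cluster42 to 25.2% for cluster33.

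The strand ratio, sense over antisense abundance, was compared next. In WT, cluster29 was close to balanced, with ratios of 1.19, 1.11 and 1.12. cluster33 leaned towards sense (1.41, 1.58 and 1.39), cluster78 strongly so (3.05, 3.60 and 3.57), and cluster42 leaned towards antisense (0.585, 0.670 and 0.616). The log2 ratio within WT differed from 0 in all 4 clusters by limma, with values of 0.19 for cluster29 (SE 0.04, adjusted p = 2.27e-04), 0.54 for cluster33 (adjusted p = 6.10e-10), -0.68 for cluster42 (adjusted p = 1.86e-11) and 1.76 for cluster78 (adjusted p = 2.18e-17). A share of 93.6% of all clusters passed this test. With each cluster's own variance, the adjusted p-values were 0.0360, 0.0147, 0.0100 and 0.00402 in the same order, and the cluster29 call was lost (adjusted p = 0.0748) when all 9 libraries shared 1 variance estimate.

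In both mutants the ratio of all 4 clusters moved. The ratio of cluster29 was 0.469, 0.380 and 0.417 in enok2 and 0.442, 0.424 and 0.310 in enok1, all below the WT libraries given above. The nearly balanced cluster was therefore antisense-dominated in the mutants, with a log2 ratio changed against WT by -1.42 in enok2 and -1.54 in enok1. cluster33 had ratios of 0.742, 0.794 and 0.792 in enok2 and 0.492, 0.628 and 0.551 in enok1, so sense dominance in WT was replaced by antisense dominance, with changes of -0.91 in enok2 and -1.38 in enok1. cluster42 moved the opposite way, with ratios of 1.97, 2.21 and 1.28 in enok2 and 1.53, 0.958 and 1.48 in enok1. Its changes were 1.46 in enok2 and 1.04 in enok1, and the second enok1 library stayed just under 1. For cluster78 the sense strand remained the larger, with ratios of 1.39, 1.81 and 1.78 in enok2 and 2.77, 1.88 and 2.69 in enok1, and changes of -1.05 in enok2 and -0.52 in enok1.

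In each of the 4 clusters, then, the strand with more piRNAs in WT lost the larger share in both alleles. That was the case for 57.1% of all clusters in enok2 and 67.1% in enok1. The major strand by group means switched in 3 of the 4 clusters (cluster29, cluster33 and cluster42) in both alleles, against 15.7% of all clusters in enok2 and 20% in enok1. Mutant ratios did not overlap WT ratios in any of the 4 clusters, as in 77.1% of all clusters in enok2 and 75.7% in enok1. The median size of the ratio change, regardless of sign, was 1.24 log2 units in enok2 and 1.21 in enok1 for the 4 clusters, beside 0.29 in enok2 and 0.27 in enok1 over all 140. Sense-dominated cluster4 also fell further on its major strand (sense -2.63, antisense -1.64 in enok2, -3.42 and -2.16 in enok1). So did antisense-dominated cluster11 (sense -2.39, antisense -2.63 in enok2, -2.81 and -3.46 in enok1). 42AB, with more sense piRNAs in WT, did not (sense -2.36, antisense -2.41 in enok2, -2.62 and -2.65 in enok1). The 4 clusters were chosen on the same libraries, and with few mutant reads their ratios carry more counting error than those of larger clusters.

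**Figure D4:**
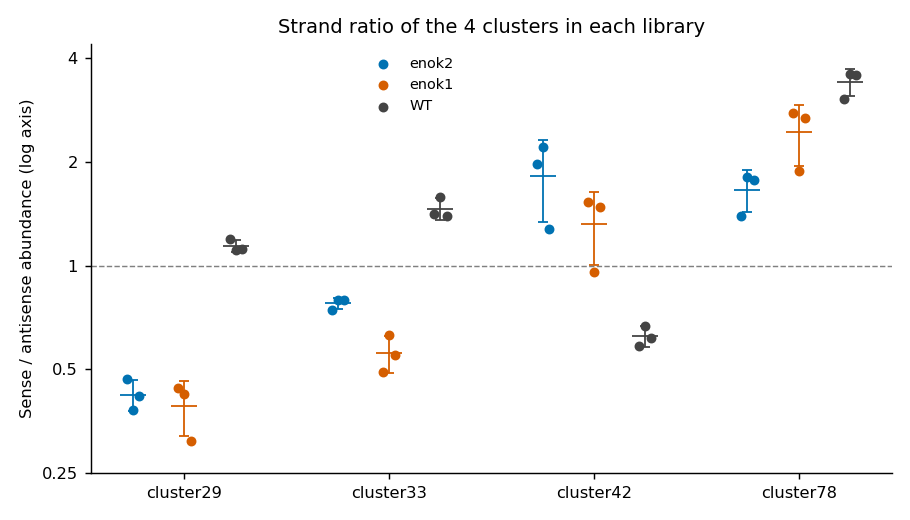
Ratio of sense to antisense abundance (log axis) in each library, with the mean ± SD of enok2, enok1 and WT, for the 4 clusters, with equal strands as a dashed line at 1. cluster29 and cluster33 lie below 1 in all mutant libraries and above 1 in WT, cluster42 lies above 1 in 5 of the 6 mutant libraries and below 1 in WT, and cluster78 stays above 1 throughout.

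The alleles were compared with each other, a contrast that the choice of the clusters did not use. By limma on the enok2 and enok1 libraries, none of the 4 clusters passed an adjusted p under 0.05 on either strand or in the strand ratio. Over all 140 clusters, 1.43% passed for sense, 2.14% for antisense and 1.43% for the ratio, and at an unadjusted p under 0.05 the shares were 9.29%, 9.29% and 19.3%. The largest differences in abundance among the 4 clusters were those of the sense strands of cluster33 and cluster78, in opposite directions. cluster33 averaged 71.4 ± 2.6 in enok2 and 47.6 ± 11 in enok1, a log2 difference of 0.60 (95% interval 0.24 to 0.96, limma unadjusted p = 0.00114, adjusted p = 0.0532). cluster78 averaged 52.4 ± 3.8 in enok2 and 76.0 ± 10.2 in enok1, a log2 difference of -0.52 (-0.88 to -0.16, limma unadjusted p = 0.00457, adjusted p = 0.160). With each cluster's own variance, the 95% intervals were 0.03 to 1.17 for cluster33 and -0.88 to -0.17 for cluster78.

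The libraries of the alleles did not overlap for the sense strands of these clusters, nor for their strand ratios, as in 17.9% of all clusters for sense and 37.9% for the ratio. No antisense pair was separated, against 15.7% of all clusters. The calls changed with the scaling. With the sum of all clusters in place of miRNAs as the scale, the sense differences were 0.44 for cluster33 and -0.69 for cluster78, and both were called (limma adjusted p = 0.00872 each). Over all alternatives the adjusted p ran from 0.00278 to 0.762 for cluster33 and from 0.00872 to 0.980 for cluster78. Leaving out the second enok1 library also brought cluster33 past the threshold (0.74), and leaving out the first brought cluster78 past it (-0.63).

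The abundance of cluster33 relative to cluster78 on the sense strand needs no scaling between libraries. This ratio, chosen after its values were seen, was 1.51, 1.22 and 1.39 in enok2 and 0.545, 0.670 and 0.646 in enok1, beside 1.17, 1.09 and 1.02 in WT. The pair joins the second highest (cluster33) and the second lowest (cluster78) sense difference between the alleles among all clusters, so the choice of the pair fixed the separation of enok2 from enok1.

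The antisense strand of cluster33 differed by 0.13 between enok2 and enok1 (limma adjusted p = 0.869). The log2 strand ratio of cluster33 was higher in enok2 by 0.48 (0.26 to 0.69, limma adjusted p = 0.0692) and that of cluster78 differed by -0.54 (-0.94 to -0.13, adjusted p = 0.110), with an interval of -1.12 to 0.05 from the own variance of cluster78. Without the second enok1 library both ratio differences passed the threshold, at 0.56 for cluster33 and -0.71 for cluster78. For cluster42, antisense piRNAs differed by -0.40 (-0.77 to -0.04, limma adjusted p = 0.409). With the cluster's own variance this interval was -1.32 to 0.51, and the difference was -0.67 without the third enok2 library and -0.27 without the second. The log2 ratio of cluster42 differed by 0.43 (-0.15 to 1.00, limma adjusted p = 0.322). The sense strand of cluster42 differed by 0.02 (-0.34 to 0.38), and cluster29 by -0.13 on the sense strand (-0.49 to 0.23), -0.25 on the antisense strand and 0.12 in the ratio, with limma adjusted p-values of 0.779, 0.643 and 0.611. The median difference over all clusters was 0.14 for sense and 0.11 for antisense.

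**Figure D5:**
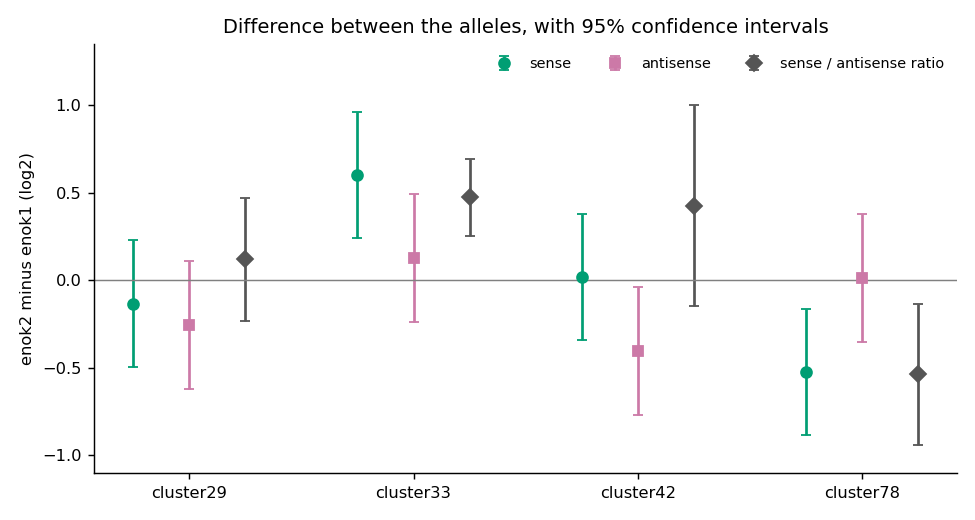
Difference of enok2 minus enok1 in log2 units, with 95% confidence intervals from limma, for sense abundance, antisense abundance and the strand ratio of each of the 4 clusters. The sense interval of cluster33 lies above 0 (0.24 to 0.96) and that of cluster78 below 0 (-0.88 to -0.16), but neither passed after adjustment over 140 clusters.

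Spread between libraries differed among the groups. The median coefficient of variation over the 8 combinations of cluster and strand was 7.11% in enok2, 22.0% in enok1 and 6.54% in WT. The first enok1 library had the lowest enok1 value in 7 of the 8. The summed abundance of all clusters was also lowest in that library, at 301140 against 418758 and 396323 in the other enok1 libraries. As shares of the summed cluster abundance of each library, the medians were 9.13% in enok2, 9.25% in enok1 and 6.36% in WT, and the enok1 median was thus close to that of enok2 on this scale. The approximate counting error of a value ranged from 6.53% to 17.4% in enok2, from 5.28% to 13.7% in enok1 and from 2.31% to 5.31% in WT. The spread as a share was well above the counting error for antisense cluster42 in enok2 (38.1% against 17.4%), sense cluster42 in enok1 (27.2% against 11.9%) and antisense cluster78 in enok1 (21.1% against 10.4%).

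As shares of the cluster total, the residuals were higher, because the total itself stood at 72.8% of WT in enok2 and at 65.5% in enok1. Measured this way, cluster29 sense kept 7.91% of its WT share in enok2 and 9.78% in enok1, and cluster42 antisense kept 7.58% in enok2 and 11.01% in enok1. The antisense strand of cluster33 kept 34.5% in enok2 and 35.4% in enok1, and that of cluster78 kept 30.3% and 34.1%.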

How the data were processed

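Small RNAs gel-selected from total RNA of ovarian egg chambers were sequenced in 9 libraries. Per the methods of the study, reads were mapped by the authors to dm3 with the piPipes small RNA pipeline, without mismatches and with unique mappers only, and the submitters' processing notes also name Trimmomatic. The deposited values are a signal per cluster and strand that the authors normalized to miRNAs. The low values gathered at whole steps and at fixed fractions of a step, and only 24.1% to 26.8% were whole steps (tolerance 0.006 of a step), so reads appear shared between positions and whole reads could not be recovered. Read equivalents are abundances divided by the step, and counting errors are the inverse square root of these, covering counting error only.

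The comparisons were made in R 4.3.3 on log2(abundance + 1), using lmFit and then eBayes (no trend) of limma 3.58.1, with the 2 groups of each comparison in the fit, adjusted by Benjamini-Hochberg over 140 clusters per strand and called at 0.05. Fold changes on this scale understate low clusters. In the abundance fits other than that of antisense enok2 against WT, limma gave the 4 clusters a common standard error, and tests with each cluster's own variance were also run. With 3 libraries against 3, an exact permutation test cannot go below p = 0.1 and was not used. The strand ratio test used the difference of the log2 values of the strands. The fitting step was tested on simulated data. Alternatives were pseudocounts of 0.1 and 10, a filter at 10, other scalings, all libraries in 1 fit, an intensity trend, a replicate block and leaving out each library; those for the WT ratio and for counts of clusters were added after seeing the data.

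The clusters and lists were chosen with earlier results of these data known. Clusters named are the 4, 42AB and flam for scale, the 3 with the nearest profiles and up to 4 neighbours in the order of fall. Genic tables served only for the tj 3' UTR and for the step behind the read equivalents and counting errors.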

Additional observations from a re-analysis of the deposited data

How the results depend on the processing

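The falls against WT kept their direction under all alternatives run. With median-of-ratios scaling of the libraries, the summed residual of the 4 clusters was 11.5% in enok2 and 12.7% in enok1 for sense, and 19.6% and 22.8% for antisense piRNAs. Scaled to the sum of all clusters, it was 13.6% and 15.5% for sense, and 23.2% and 27.8% for antisense. Scaled to sense flam, the enok2 residual was 10.3% for sense and 17.6% for antisense. With 1 library left out, the residual ranged from 9.75% to 10.1% in enok2 and from 9.58% to 11% in enok1 for sense, and from 16.5% to 17.2% in enok2 and from 17.2% to 20.3% in enok1 for antisense.

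Between enok2 and enok1, the sense difference of cluster33 passed the threshold at a pseudocount of 0.1 (0.61), scaled by the median of ratios (0.48) or the cluster sum (0.44), and with all 9 libraries in 1 fit (0.60). With 1 library left out it ranged from 0.40 to 0.74. That of cluster78 passed when scaled by the median of ratios (-0.65) or the cluster sum (-0.69), and with all 9 libraries (-0.52), and ranged from -0.63 to -0.44 with 1 left out. The log2 strand ratio of cluster33 passed with all 9 libraries and with an intensity trend (0.48 in both), and ranged from 0.39 to 0.56 with 1 left out. That of cluster78 ranged from -0.71 to -0.42 and passed without the second enok1 library. The WT ratio of cluster29 (0.19) missed the threshold with all 9 libraries.

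Over all 140 clusters, sense calls between the alleles numbered 2, against 6 by the median of ratios, 8 by the cluster sum, 4 with all 9 libraries and 0 by sense flam or own variance. Antisense calls numbered 3, against 5 with all 9 libraries and 0 by own variance or without the first library of either allele. Ratio calls numbered 2, against 18 with all 9 libraries and 0 to 12 with 1 library left out. Clusters called lower than WT by the cluster sum were 31 of 140 for sense and 37 for antisense in enok2, and 25 and 34 in enok1.

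For each library, the deviation of every cluster from its group mean was taken. Over clusters, these deviations correlated at -0.32 to 0.29 between same-numbered libraries of different groups. Differently numbered libraries were not compared, so these values cannot decide whether replicate numbers paired the samples. With the replicate block, the sense difference of cluster33 was 0.60 (limma adjusted p = 0.285) and that of cluster78 -0.52 (adjusted p = 0.587), no call of the 4 clusters changed, and ratio calls over all clusters numbered 0 in place of 2. Values of cluster42 on both strands in the mutants rest on the fewest reads.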
